A study of Mus musculus with 14 samples.

Results

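The tubular claudins are the 10 claudin genes Cldn1, Cldn2, Cldn3, Cldn4, Cldn6, Cldn7, Cldn8, Cldn10, Cldn16 and Cldn19, taken by symbol from the 24411 genes counted in each library. All 10 passed the filter on low counts that left 14300 genes for testing. RNA of whole kidneys of male C57/B6 mice aged 8 weeks was sequenced in bulk, so that each library mixes all cell types of the organ. There were 4 libraries at day 0, 5 at day 1 and 5 at day 3 after renal ischemia/reperfusion injury (IRI), in which blood flow to the kidney is stopped and then restored. The labels name no transgene, deletion or drug, and they give neither the surgery of the day 0 mice nor whether each library came from its own mouse. P-values therefore measure the spread between these libraries. Reads on genes ranged from 12485579 to 20476979 per library, and markers of proximal tubule and thick ascending limb were found in each. The number in the library name had 1 digit in the 4 libraries of day 0, in 3 of day 1 and in 2 of day 3, and 3 digits in the other 2 of day 1 and the other 3 of day 3. Because libraries of a day differed along this number format, day effects are also given for the libraries of each format alone. Against day 0, the values of 3-digit libraries alone set them beside 1-digit libraries and so cross the formats. What the format stands for is not given in the sources used here, and at day 0 it cannot be told apart from the day.

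Claudins are multi-pass membrane proteins of the tight junction, the belt that joins neighbouring epithelial cells near their apical side. Some seal the space between cells, and others form pores that let selected ions or water pass between them. Each segment of the kidney tubule carries its own mixture, which helps to set how leaky it is, from the open proximal tubule to the tight collecting duct. In whole kidney RNA, fewer cells of a segment and less RNA per cell cannot be told apart.

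Cldn3 and Cldn4 lie next to each other on mouse chromosome 5 in the GENCODE annotation of GRCm38 (mm10), 39279 bases apart and read away from each other. Both have 1 exon. Cldn4 spans 134945119 to 134946934 on the minus strand and Cldn3 spans 134986214 to 134987472 on the plus strand. Their upstream sequences are shown because these neighbours rose by very different amounts. Each is the 250 bases before the RefSeq start (GRCm38.p6), read 5′ to 3′ in the direction of the gene, at chr5:134946935-134947184 for Cldn4 and chr5:134985964-134986213 for Cldn3. Capitals mark matches to TGANTCA, the site of the AP-1 transcription factors, which is looked for on both strands.
Cldn4: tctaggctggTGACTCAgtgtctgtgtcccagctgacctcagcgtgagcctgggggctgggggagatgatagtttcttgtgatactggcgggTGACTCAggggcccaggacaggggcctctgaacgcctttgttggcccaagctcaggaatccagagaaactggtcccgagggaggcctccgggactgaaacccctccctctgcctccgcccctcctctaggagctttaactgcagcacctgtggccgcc
Cldn3: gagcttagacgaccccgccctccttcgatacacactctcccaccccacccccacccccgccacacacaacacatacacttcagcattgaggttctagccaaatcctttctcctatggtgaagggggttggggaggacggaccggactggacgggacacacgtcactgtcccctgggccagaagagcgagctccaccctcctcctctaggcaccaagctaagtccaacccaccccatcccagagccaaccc
Cldn4 had 2 matches to TGANTCA, which began 240 and 158 bases before its start. Of 32851 RefSeq promoters of the same length 6.749% held at least 1 match and 0.3379% held 2 or more. RefSeq gave 12 starts for 9 of the 10 claudins, all but Cldn8, and TGANTCA was found at 1 of the 12. Another 6 short motifs were searched on both strands. Matches to GGGCGG, the GC box, were found at 8 of the 12 starts against 32.74% of all promoters, and 2 of these 8 are starts of Cldn19 whose windows overlap and hold the same matches. Matches to CAGGTG, a Snail E-box, were found at 3 starts (1 each of Cldn4, Cldn6 and Cldn7) against 17.22%. TGACGTCA, a cyclic AMP response element, was found at 1 start each of Cldn6 and Cldn7 against 1.546%, and GTTAAT, an HNF1 half-site, at 1 start each of Cldn1 and Cldn10 against 6.432%. TATAAA was found in Cldn2 alone, against 12.37%, and AACNGGTT, the letters of grainyhead-like factors, in none, against 1.79%. GENCODE exons of the gene covered 116 of the 250 bases of the Cldn6 window and 221 at the Cldn7 start with these matches. They covered 218 at the Cldn10 start with GC boxes and at most 55 at any other start. Those windows thus hold exon sequence as well as sequence before the gene. A match describes the letters and does not show that a factor binds.

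At day 1, 8 of the 10 claudins differed from day 0, with 4 higher and 4 lower. Cldn4, Cldn7, Cldn3 and Cldn1 rose, and Cldn10, Cldn8, Cldn19 and Cldn2 fell. Over all genes tested 42.1% were called at day 1, 23.3% higher and 18.7% lower. At day 3 there were 5 calls, with Cldn4, Cldn6, Cldn7 and Cldn3 higher and Cldn10 lower, against 33.3% of all genes, 19.5% higher and 13.8% lower. With the format as a term the day 3 calls were 4 higher and 4 lower, where 48.2% of all genes were called. In 1-digit libraries alone they were 3 higher and 5 lower (56.3%), and in 3-digit libraries alone 5 higher and 1 lower (34.0%). At day 1 the format term gave 3 higher and 4 lower (55.9%), 1-digit libraries 5 and 4 (61.3%) and 3-digit libraries 4 and 2 (42.9%). For 8 claudins at day 1 and 5 at day 3 every library lay on the same side of every library of day 0, which held for 42.0% and 33.4% of all genes. The median log2 fold change of the 10 claudins was 0.51 at day 1 and 0.56 at day 3, beside 0.01 and 0.05 over all genes. Both comparisons share the day 0 libraries. A call means an adjusted p-value under 0.05 in edgeR's quasi-likelihood test with Benjamini-Hochberg adjustment over all 14300 genes, which is the source of every adjusted p below unless another test is named. Levels are counts scaled to the reads on genes of each library (CPM, TMM-scaled). They are given in the order of the replicates, and the 3-digit libraries come before the 1-digit libraries within days 1 and 3.

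**Figure D1:**
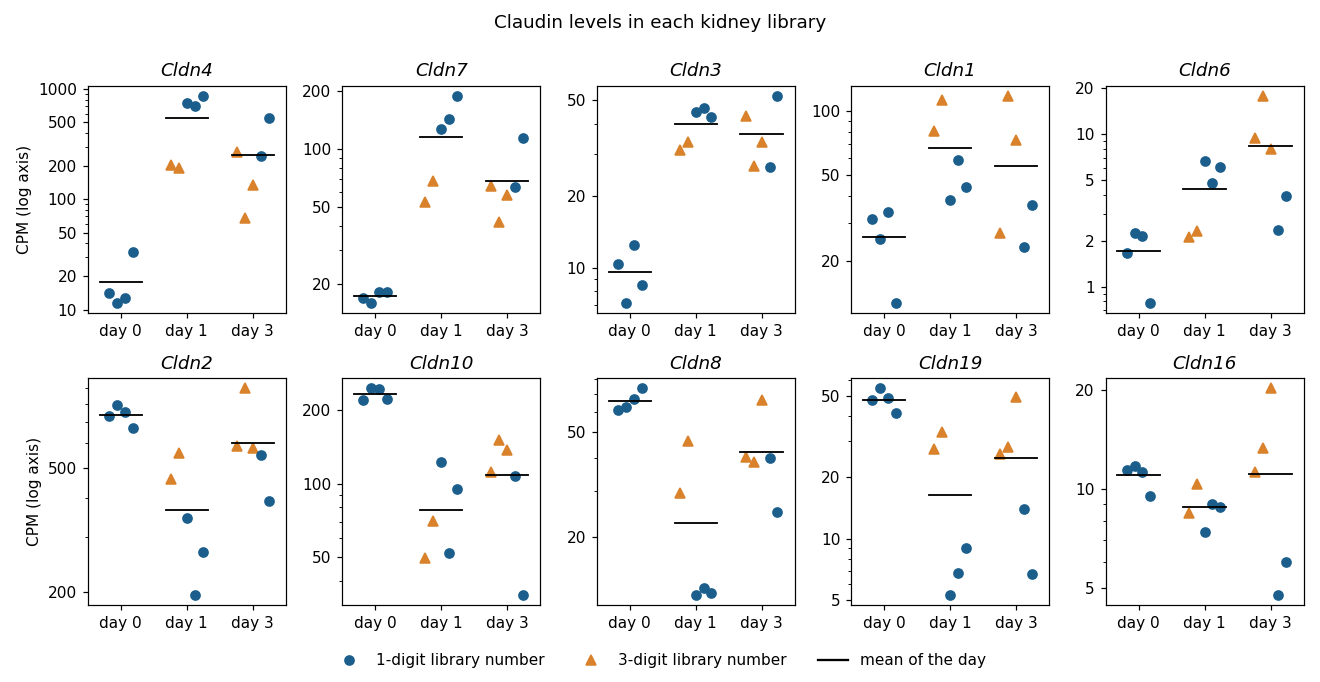
CPM (log axis) of each of the 10 claudins in each of 14 kidney libraries by day, with circles for 1-digit and triangles for 3-digit library numbers and a line at the mean of the day. Cldn4, Cldn7 and Cldn3 lie above day 0 in all 10 libraries after IRI, and Cldn10 lies below it in all 10.

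Cldn4, a claudin of the distal nephron and collecting duct that lowers sodium passage between cells, showed the largest change among the 10. It was at 14.03, 11.6, 12.6 and 33.4 CPM at day 0. By day 1 the level was 203 and 190.5 CPM in the 3-digit libraries and at 743, 709 and 868 CPM in the 1-digit libraries. Day 3 levels were 267, 67.0 and 136 CPM in the 3-digit libraries and 246 and 549.55 CPM in the 1-digit libraries. Every library after IRI was above every library of day 0, and within day 1 the 2 formats did not overlap. The log2 fold change was 4.92 (SE 0.71, adjusted p = 0.000194) at day 1, which is 30.3-fold, and 3.82 (SE 0.67, adjusted p = 0.00103) at day 3, which is 14.1-fold. Against the same day 0 libraries, the day 1 value was 5.46 (adjusted p = 4.59e-06) in 1-digit and 3.46 (adjusted p = 0.000846) in 3-digit libraries alone. At day 3 these values were 4.49 and 3.13. Replicate 4 of day 0 stood above the other 3 of its day. Of 10 markers of injured tubule, 9 were higher at day 1 and 9 at day 3. At day 1 they summed to 32018.5 and 38144 CPM in the 3-digit libraries, where Cldn4 was lower, and to 9240 to 17049 CPM in the 1-digit libraries, where it was higher. At day 3 the sums were 34092, 7356 and 22040 CPM in the 3-digit and 44976 and 36765 CPM in the 1-digit libraries. The format with the higher mean Cldn4 thus had the higher sums, and replicate 2 was lowest for both. By marker, 3 of the 10 were called higher in the 3-digit libraries of day 1, where 35.0% of all genes differed. Between the formats of day 3, 0 of the 10 were called, against 18.5%. The median log2 differences of these markers were 0.38 and -0.19. Their part in the rise of Cldn4 was not tested.

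Cldn7, which is found along the distal nephron and on the basolateral side of its cells as well as in junctions, rose at both days. It was at 16.8, 16.0, 18.2 and 18.1 CPM at day 0. Day 1 levels were 53.4 and 68.2 CPM in the 3-digit and 128, 143 and 189.8 CPM in the 1-digit libraries. Those of day 3 were 64.7, 41.7 and 57.8 CPM and 63.9 and 115 CPM. No library after IRI fell within the narrow range of day 0. The log2 fold change was 2.75 (SE 0.37, adjusted p = 0.000114) at day 1 and 1.99 (SE 0.36, adjusted p = 0.00117) at day 3, which is 6.73-fold and 3.97-fold. Against the same 1-digit libraries of day 0, the day 1 value was 3.18 (9.08-fold) in 1-digit and 1.82 (3.53-fold) in 3-digit libraries alone. The day 3 values were 2.39 and 1.66, and all of these were called.

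Cldn3, a sealing claudin and the neighbour of Cldn4, rose by a similar amount at both days. It was at 10.4, 7.18, 12.4 and 8.52 CPM at day 0, and at 31.0 and 33.5 CPM and 44.9, 46.3 and 42.7 CPM at day 1. The day 3 levels were 43.0, 26.7 and 33.4 CPM and 26.5 and 52.2 CPM. The groups did not overlap, and in both formats the levels after IRI were above day 0. The log2 fold change was 2.04 (SE 0.24, adjusted p = 4.22e-05) at day 1 and 1.91 (SE 0.24, adjusted p = 0.000104) at day 3, which is 4.11-fold and 3.77-fold. The value was 2.24 in 1-digit and 1.75 in 3-digit libraries alone at day 1 and 2.05 and 1.84 at day 3, again with a call in each. An antisense gene, Wbscr25, overlaps Cldn3, and the counts used here were those of the strand of the gene.

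Cldn1, a sealing claudin known from the skin barrier and from the parietal cells of Bowman's capsule, rose at day 1. It was at 31.4, 25.4, 33.7 and 12.8 CPM at day 0. Levels at day 1 were 80.5 and 112 CPM in the 3-digit and 38.5, 59.1 and 44.1 CPM in the 1-digit libraries. Day 1 did not overlap day 0, though the lowest library of day 1 stood close to the highest of day 0. The log2 fold change was 1.38 (SE 0.48, adjusted p = 0.0333), and the call was lost without day 0 replicate 1, 2 or 4 or day 1 replicate 1 or 2, with an adjusted p of up to 0.0934. With the format as a term the value was 0.82 (adjusted p = 0.0823). At day 3 it ranged from 23.1 to 117 CPM, which overlapped day 0, with a log2 fold change of 1.10 (SE 0.48, adjusted p = 0.0882). By format Cldn1 was called in 3-digit libraries at both days, at 1.91 (adjusted p = 0.0120) and 1.49 (adjusted p = 0.0294), and in 1-digit libraries at day 1 (0.91, adjusted p = 0.0211) but not at day 3 (0.22, adjusted p = 0.591).

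Cldn6, a claudin known from embryonic epithelia, was the least abundant, with 13 to 38 reads per library at day 0. It was at 1.67, 2.24, 2.15 and 0.786 CPM at day 0. Its day 1 levels were 2.10 and 2.32 CPM in the 3-digit and 6.61, 4.74 and 6.11 CPM in the 1-digit libraries. Its day 3 levels were 9.36, 17.7 and 8.02 CPM in the 3-digit and 2.35 and 3.89 CPM in the 1-digit libraries. The higher levels were thus in the 1-digit libraries at day 1 and in the 3-digit libraries at day 3. The log2 fold change was 2.27 (SE 0.57, adjusted p = 0.00814) at day 3, where the groups did not overlap, and 1.34 (SE 0.56, adjusted p = 0.0650) at day 1, where they did. Day 1 was called with DESeq2 (adjusted p = 0.0292), with only these 2 days in the fit (0.0284) and without day 1 replicate 1 or 2 or day 3 replicate 2 or 4 (adjusted p = 0.0391 to 0.0488). It was also called in 1-digit libraries alone (1.79, adjusted p = 0.00105), where day 3 was not (0.88, adjusted p = 0.0748). The 3-digit libraries alone gave 0.37 (adjusted p = 0.519) at day 1 and 2.77 (adjusted p = 0.000751) at day 3. Cldn6 ends 137 bases from Cldn9, another claudin gene.

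**Figure D2:**
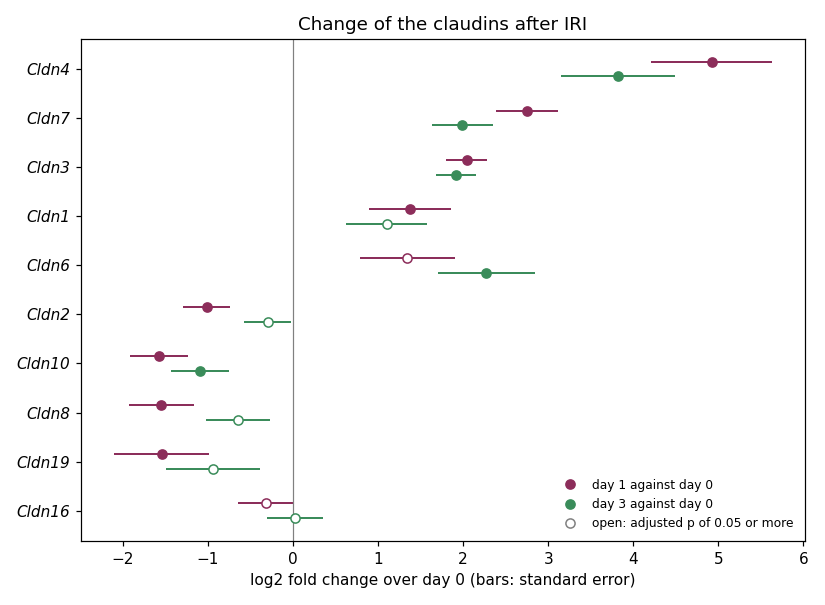
Log2 fold change of each claudin over day 0 at day 1 and day 3, with bars of 1 standard error and open points where the adjusted p is 0.05 or more. Cldn4 stands farthest to the right at 4.92 and 3.82, and Cldn2, Cldn8, Cldn10 and Cldn19 lie below 0 at both days with Cldn10 alone called at day 3.

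Cldn2 and Cldn10 are the pore-forming claudins of the proximal tubule. Cldn2 lets sodium and water pass between proximal cells. Cldn10 is made in different forms from separate starts, of which the thick ascending limb uses a cation pore and the proximal tubule an anion pore. Gene counts add up these forms, since 2 RefSeq starts share the later exons.

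Cldn10 fell at both days. It was at 219, 245, 243 and 221 CPM at day 0. At day 1 it was at 49.8 and 70.5 CPM in the 3-digit and at 122, 52.3 and 95.0 CPM in the 1-digit libraries, and at day 3 at 112, 151 and 137 CPM and at 107 and 35.2 CPM. Every library after IRI was below every library of day 0, and the lowest value was in day 3 replicate 5. Cldn10 fell by 1.57 on the log2 scale at day 1 (SE 0.34, adjusted p = 0.00272) and by 1.10 at day 3 (SE 0.34, adjusted p = 0.0233), to levels 2.97-fold and 2.14-fold lower. The day 3 call was lost without day 0 replicate 2 or 3, with an adjusted p of up to 0.0540. By format Cldn10 was called at both days, at -1.33 in 1-digit and -1.94 in 3-digit libraries at day 1 and at -1.68 (adjusted p = 0.00644) and -0.80 (adjusted p = 0.00329) at day 3.

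Cldn2, the most abundant claudin at day 0, fell at day 1. It was at 732, 796, 751 and 672 CPM at day 0, and at 461 and 558 CPM in the 3-digit and 346, 196 and 268 CPM in the 1-digit libraries after 1 day. These levels lay wholly below day 0, with the 1-digit libraries lowest. Cldn2 fell by 1.01 on the log2 scale (SE 0.28, adjusted p = 0.00996), which is 2.02-fold. At day 3 it was at 589, 898 and 577 CPM and at 551 and 389.9 CPM. That range overlapped day 0, and the log2 fold change was -0.30 (SE 0.28, adjusted p = 0.424). In 1-digit libraries alone Cldn2 was lower at both days, by -1.42 (adjusted p = 0.000174) and -0.63 (adjusted p = 0.0340). In 3-digit libraries alone the values were -0.53 (adjusted p = 0.0539) and -0.10 (adjusted p = 0.680). The summed level of 14 proximal tubule markers ranged from 64428 to 67217 CPM at day 0, from 26160 to 69194 CPM at day 1 and from 15925 to 38672 CPM at day 3. Of these 14, 2 were lower at day 1 and 4 at day 3, and none was higher. At day 1 their sum was 41094 and 26160 CPM in the 3-digit libraries and 52458 to 69194 CPM in the 1-digit libraries, where Cldn2 was lower. Cldn10 and the sum were both highest in replicate 3 of that day, but the lowest sum was in replicate 2 and the lowest Cldn10 in replicate 1. At day 3 the sum was 31476, 38672 and 28717 CPM in the 3-digit and 27806 and 15925 CPM in the 1-digit libraries, where Cldn2 and Cldn10 were lower too, and for both claudins and the sum replicate 2 was highest and replicate 5 lowest. Of the 14 markers, 10 differed between the formats of day 1 (35.0% of all genes), with 9 lower and 1 higher in the 3-digit libraries. At day 3, 6 differed (18.5% of all genes), each with the 3-digit level above the 1-digit level. Cldn2 (adjusted p = 0.140) and Cldn10 (0.119) were not called between the formats of day 3. The part of these markers in the change of Cldn2 and Cldn10 was not tested.

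Cldn8 is a claudin of the collecting duct and aldosterone-sensitive distal nephron that partners with Cldn4. It was at 61.1, 62.4, 67.0 and 73.7 CPM at day 0. At day 1 it was at 29.4 and 46.2 CPM in the 3-digit libraries and at 11.99, 12.8 and 12.2 CPM in the 1-digit libraries. The day 1 libraries were all lower than day 0, and those with 1-digit numbers lay close together far below the rest. Cldn8 fell by 1.55 on the log2 scale (SE 0.38, adjusted p = 0.00561), which is 2.92-fold, while Cldn4 rose in the same libraries. The day 1 value was -2.39 (adjusted p = 3.21e-06) in 1-digit and -0.80 (adjusted p = 0.0273) in 3-digit libraries alone. At day 3 it was at 40.4, 38.4 and 66.5 CPM and at 39.9 and 24.8 CPM. That overlapped day 0, with a log2 fold change of -0.65 (SE 0.38, adjusted p = 0.194) that was -1.01 (adjusted p = 0.000944) in 1-digit and -0.45 (adjusted p = 0.134) in 3-digit libraries alone. With only days 0 and 3 in the fit it was called (adjusted p = 0.0451). Of 9 principal cell markers, 3 were lower at day 1 and 5 at day 3, and none was higher. Their sum was 956 to 1213 CPM at day 0 and 266 to 841 CPM at day 3. At day 1 it was 408.7 to 612 CPM in the 1-digit and 841 to 913 CPM in the 3-digit libraries, and at day 3 it was 379 and 266 CPM in the 1-digit and 412 to 841 CPM in the 3-digit libraries. Its part in the fall of Cldn8 was not tested.

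Cldn16 and Cldn19 work together in the thick ascending limb, where they support the uptake of calcium and magnesium between cells. Cldn19 was at 47.6, 54.6, 48.8 and 41.4 CPM at day 0. Levels of 27.6 and 33.3 CPM in the 3-digit libraries and 5.31, 6.80 and 9.005 CPM in the 1-digit libraries followed at day 1. At day 3 they were 26.0, 28.3 and 49.6 CPM and 14.05 and 6.75 CPM. The 1-digit libraries were the lowest at both days, and only day 1 did not overlap day 0. Cldn19 fell by 1.55 on the log2 scale at day 1 (SE 0.56, adjusted p = 0.0381), which is 2.92-fold, and the day 3 value was -0.94 (SE 0.55, adjusted p = 0.201). The day 1 call was lost without any of the 4 day 0 replicates or without day 1 replicate 3, 4 or 5, with an adjusted p of up to 0.0849. On library totals without TMM scaling it was lost too (-1.49, adjusted p = 0.0608). In 1-digit libraries alone the values were -2.75 (adjusted p = 1.40e-05) at day 1 and -2.19 (adjusted p = 0.000158) at day 3, and in 3-digit libraries alone -0.66 (adjusted p = 0.0567) and -0.47 (adjusted p = 0.116). An antisense gene, Gm12927, overlaps Cldn19.

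Cldn16 did not pass the test at either day. It was at 11.4, 11.8, 11.3 and 9.55 CPM at day 0, at 8.46 and 10.4 CPM and 7.42, 9.03 and 8.84 CPM at day 1, and at 11.3, 13.4 and 20.3 CPM and 4.77 and 6.02 CPM at day 3. Both days overlapped day 0, and at day 3 the 3-digit libraries lay within or above the day 0 range and the 1-digit libraries below them. The log2 fold change was -0.32 (SE 0.33, adjusted p = 0.445) at day 1 and 0.02 (SE 0.32, adjusted p = 0.964) at day 3. Its direction at day 3 depended on the libraries. It was -1.01 (adjusted p = 0.00111) in 1-digit libraries alone and 0.45 (adjusted p = 0.117) in 3-digit libraries alone. The ratio of Cldn19 to Cldn16, each per length, was 1.17 to 1.31 at day 0. At day 1 it was 0.918 and 0.901 in the 3-digit and 0.201, 0.212 and 0.287 in the 1-digit libraries, and at day 3 it was 0.316 to 0.828. Of 9 thick ascending limb markers, 8 were lower at day 1 and the same number at day 3, with medians of -2.52 and -2.01, and their sum went from 8381 to 11742 CPM at day 0 to 3333 to 6302 CPM at day 1 and 2409 to 3660 CPM at day 3. At day 1 the sum was 4665 and 3333 CPM in the 3-digit and 4105 to 6302 CPM in the 1-digit libraries, so the formats overlapped, while Cldn19 was lower in every 1-digit library. At day 3 the sums overlapped too, at 3176, 3067.5 and 3660 CPM in the 3-digit and 2409 and 3214 CPM in the 1-digit libraries. By marker, 2 of the 9 were higher and 1 lower in the 3-digit libraries at day 1, with a median log2 difference of -0.28. At day 3, 6 were higher and none lower, with a median of 0.98, and Cldn19 and Cldn16 were higher in the 3-digit libraries too. Their part in the values of Cldn16 and Cldn19 was not tested.

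To compare claudins with each other, CPM was divided by the length of the longest protein-coding transcript. At day 0 the order was Cldn2 at 242 CPM per kb, Cldn10 at 109 and Cldn8 at 28.0, and these levels did not overlap each other or the rest. Cldn7 at 13.0, Cldn19 at 11.5, Cldn4 at 9.86, Cldn16 at 9.39, Cldn1 at 7.95 and Cldn3 at 7.65 CPM per kb each overlapped the next in the order. Cldn6 stood apart at 1.05 CPM per kb. At day 1 the order was led by Cldn4 at 299 CPM per kb (SD 177, n = 5), above Cldn2 at 120 (SD 47.8, n = 5) and Cldn7 at 87.3 (SD 41.9, n = 5), and every neighbouring pair overlapped. At day 3 Cldn2 led at 197 CPM per kb (SD 60.6, n = 5), followed by Cldn4 at 139 (SD 102, n = 5), Cldn7 at 51.4 and Cldn10 at 50.9, again with overlap between all neighbours. The ratio of Cldn4 to Cldn2 per length was 0.0244 to 0.0832 at day 0. At day 1 it was 0.738 and 0.572 in the 3-digit and 3.60, 6.07 and 5.43 in the 1-digit libraries. At day 3 it was 0.76, 0.125 and 0.394 in the 3-digit and 0.747 and 2.36 in the 1-digit libraries. The sealing Cldn4 thus exceeded the pore-forming Cldn2 in 4 of 14 libraries, all with 1-digit numbers.

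**Figure D3:**
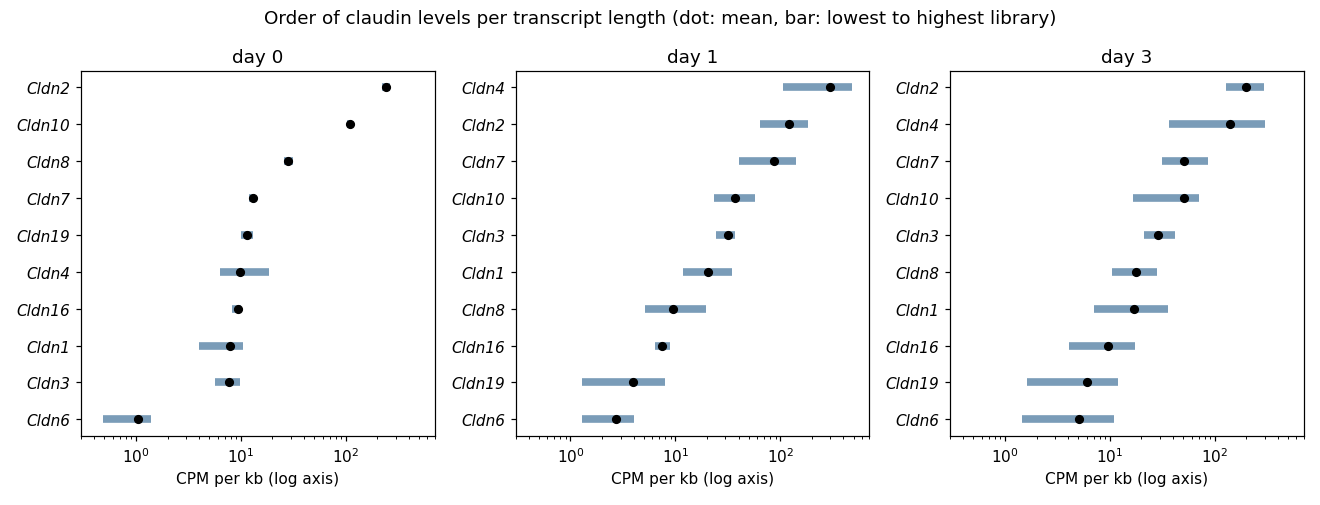
Mean CPM per kb (log axis) of the 10 claudins at day 0, day 1 and day 3, ordered by level, with bars from the lowest to the highest library. Cldn2 leads at day 0 (242) and day 3 (197), and Cldn4 leads at day 1 (299) from 6th place at day 0.

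No claudin was called between day 3 and day 1, where 15.9% of all genes were. The groups overlapped for all 10 claudins, while 7.61% of all genes did not overlap. At an unadjusted p under 0.05 there were 3, Cldn2 (0.72, SE 0.26, adjusted p = 0.0763), Cldn8 (0.90, SE 0.36, adjusted p = 0.103) and Cldn7 (-0.76, SE 0.32, adjusted p = 0.113). DESeq2 called 1, Cldn2 (adjusted p = 0.0390). With the replicate number as a block Cldn2 (adjusted p = 0.0298) and Cldn7 (0.0407) were called, and with the format as a term Cldn2 (0.0334) and Cldn8 (0.0186). Without day 3 replicate 5 edgeR called 3 (Cldn2, Cldn4 and Cldn7), without day 1 replicate 2 it called 2 (Cldn2 and Cldn8) and without day 1 replicate 1 it called 1 (Cldn7). In 1-digit libraries alone there were 4 calls, Cldn2 and Cldn8 higher and Cldn7 and Cldn16 lower at day 3, and in 3-digit libraries alone 2, Cldn6 and Cldn10 higher. Over all genes DESeq2 called 23.0%, the replicate block 14.3% and the format term 19.7%. Leaving out the libraries named gave 21.7%, 23.5% and 17.8% in the same order. The 1-digit libraries alone gave 36.0% and the 3-digit libraries alone 16.0%.

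Within day 1, 6 claudins differed between 3-digit and 1-digit libraries, where 35.0% of all genes were called. The 3 that were higher in the 3-digit libraries were Cldn19 (log2 difference 2.12, SE 0.32, adjusted p = 0.000589), Cldn8 (1.62, SE 0.26, adjusted p = 0.000793) and Cldn2 (0.92, SE 0.25, adjusted p = 0.0128), against 18.6% of all genes. The 3 that were lower were Cldn4 (-1.97, SE 0.56, adjusted p = 0.0164), Cldn6 (-1.39, SE 0.44, adjusted p = 0.0259) and Cldn7 (-1.34, SE 0.26, adjusted p = 0.00211), against 16.4%. The formats did not overlap for these 6 or for Cldn1 and Cldn3, which makes 8 of 10 beside 60.7% of all genes. In each of the 6, and in Cldn3 and Cldn16, the mean of the 1-digit libraries stood farther from day 0. For Cldn1 and Cldn10 the mean of the 3-digit libraries did. How many of all genes had either order was not counted. Without day 1 replicate 2 the count of calls was 3. Within day 3, 3 claudins differed, against 18.5% of all genes, and all were higher in the 3-digit libraries, against 10.3%. These were Cldn6 (1.91, SE 0.44, adjusted p = 0.0145), Cldn19 (1.73, SE 0.34, adjusted p = 0.00751) and Cldn16 (1.47, SE 0.26, adjusted p = 0.00524). That count was 0 without day 3 replicate 5, where 0.638% of all genes were called, and 6 without replicate 1 (33.5%). It was 5 without replicate 4 (18.7%) and 5 with DESeq2 (24.6%). The format effects of the 2 days differed for Cldn6 (day 3 minus day 1, 3.30, SE 0.62, adjusted p = 0.00400) and Cldn16 (1.31, SE 0.35, adjusted p = 0.0216), where 17.6% of all genes were called. Without day 1 replicate 1 only 1 of these calls was made (8.85% of all genes), and without day 3 replicate 5 there were 4 (13.2%).

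**Figure D4:**
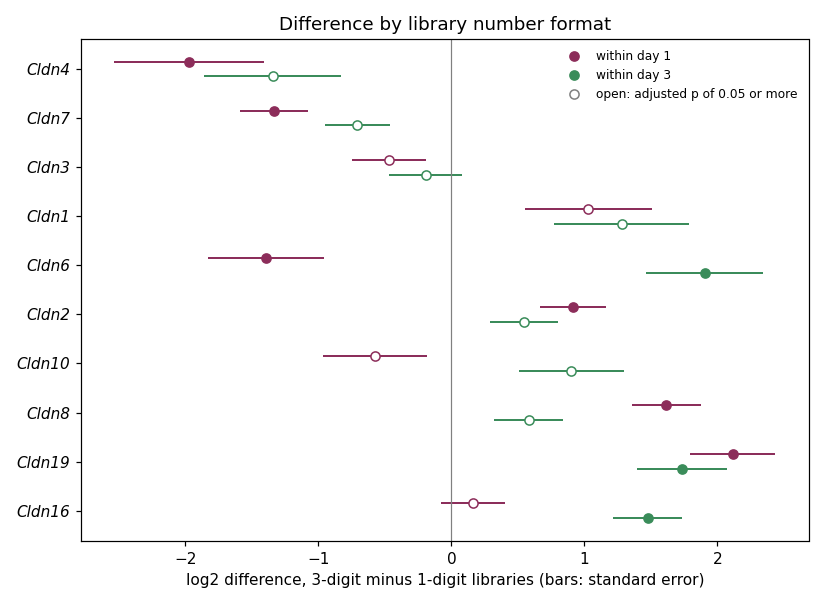
Log2 difference between 3-digit and 1-digit libraries within day 1 and within day 3 for each claudin, with bars of 1 standard error and open points where the adjusted p is 0.05 or more. Cldn8 and Cldn19 lie to the right and Cldn4 and Cldn7 to the left at both days, and Cldn6 lies at -1.39 at day 1 and 1.91 at day 3.

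The kidney pelvis is lined by urothelium, which also makes Cldn4 and Cldn7, so 8 urothelium markers were measured beside them. Krt20, a keratin of urothelial surface cells, rose from at most 2.54 CPM at day 0 to 359 to 1204 CPM at day 1 and 52.6 to 877 CPM at day 3. The other 7 markers, among them the uroplakins Upk1a, Upk1b, Upk2 and Upk3a, summed to 4.06 to 82.6 CPM at day 0, 5.38 to 121 CPM at day 1 and 3.88 to 53.0 CPM at day 3. Krt20 passed the test at both days (adjusted p = 5.90e-05 and 0.000176), none of the other 7 was higher after IRI, and Upk2 was lower at day 3. Upk1b, Upk2 and Upk3a were at 0 CPM in at least 1 library. At day 1 the 7 summed to 20.3 and 121 CPM in the 3-digit libraries and to 5.38, 6.40 and 10.4 CPM in the 1-digit libraries, where Cldn4 and Cldn7 were higher. At day 3 they summed to 6.56, 3.88 and 16.7 CPM in the 3-digit and to 53.0 and 7.27 CPM in the 1-digit libraries, and replicate 2 was lowest for this sum, Krt20, Cldn4 and Cldn7. Day 0 replicate 4, which had the highest Cldn4 of its day, also had the highest sum of its day, 82.6 CPM. The split into Krt20 and the other 7 was made after their values were seen. The part of these markers in the levels of Cldn4 and Cldn7 was not tested.

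**Figure D5:**
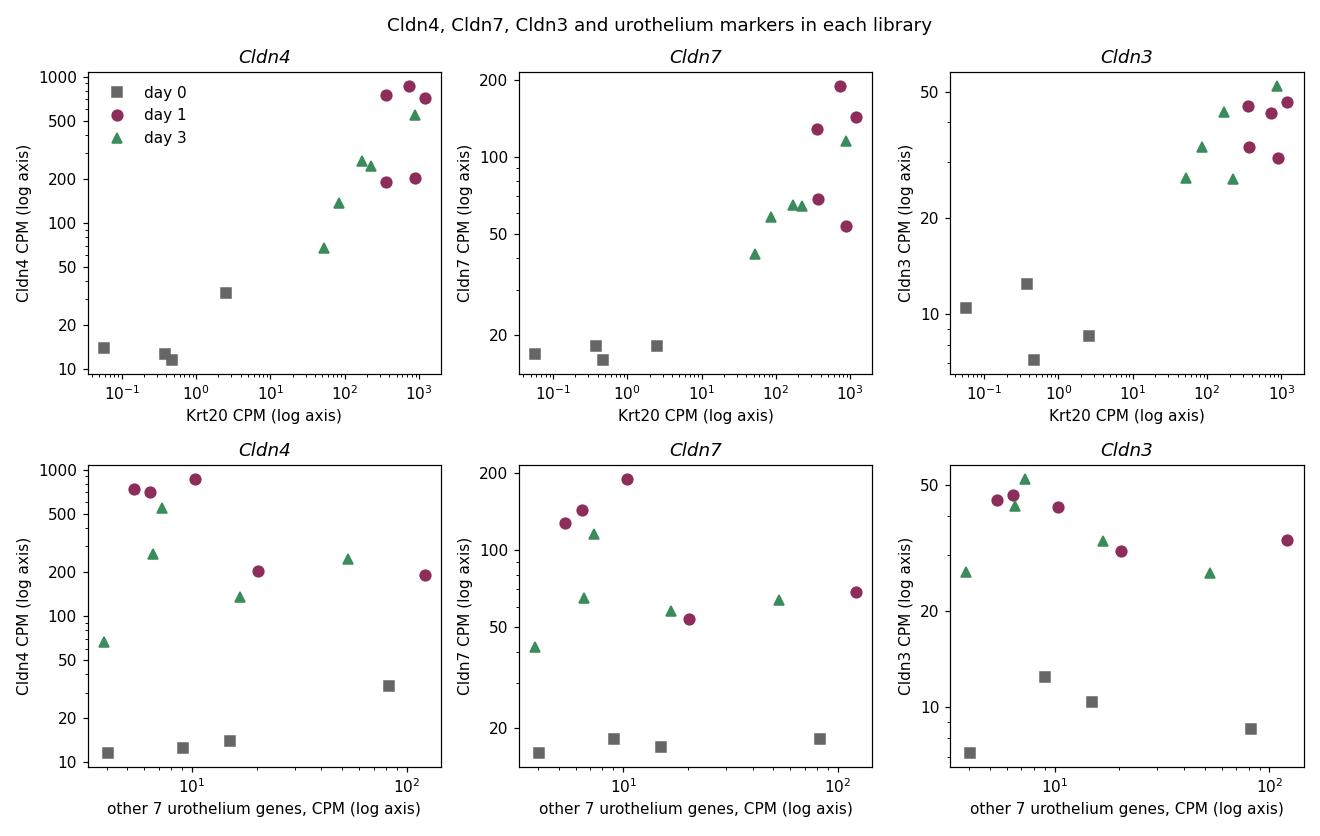
CPM of Cldn4, Cldn7 and Cldn3 in each of 14 libraries against Krt20 (upper row) and against the summed CPM of the other 7 urothelium markers (lower row), all on log axes, with the day as the symbol. Libraries after IRI lie above day 0 for the claudins and for Krt20, while the sum of the other markers covers 4.06 to 82.6 CPM at day 0 and 3.88 to 121 CPM after it.

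Other genes of the tight junction were compared in lists drawn from general knowledge. The counts of these lists stand beside 23.3% of all genes higher and 18.7% lower at day 1, and 19.5% and 13.8% at day 3. At day 3 the share of all genes called was 48.2% with the format as a term. It was 56.3% in 1-digit and 34.0% in 3-digit libraries alone. Of the other 24 genes with a Cldn symbol 9 were tested, and 3 were higher at day 1. These were Cldn23 (1.44, adjusted p = 0.0299), Cldn5, the claudin of blood vessels (0.95, adjusted p = 0.00934), and Cldnd1, a claudin domain protein (0.75, adjusted p = 0.00756). None of these 3 passed in 3-digit libraries alone (adjusted p = 0.0855 to 0.477), and Cldn23 did not without day 0 replicate 2 or 3 or day 1 replicate 4 or 5. At day 3, 1 was lower. The count of day 3 calls in either direction, 1, was 4 in 1-digit libraries alone, 3 with the format as a term, 2 on library totals or without day 3 replicate 2, and 0 among genes with at least 10 counts in every library. Of 13 other transmembrane proteins of the junction, 6 were higher and 1 lower at day 1, and 2 were higher at day 3. The 2 calls of day 3 became 5 with the format as a term and 4 in 3-digit libraries alone, in either direction. Igsf5, an immunoglobulin-like junction protein, rose by 1.38 (adjusted p = 0.00240) at day 1 and 1.18 (adjusted p = 0.00741) at day 3. Lsr, angulin-1 of the corners where cells meet, rose by 1.35 (adjusted p = 0.000121) at day 1, and F11r, the adhesion molecule JAM-A, by 0.96 (adjusted p = 0.000904) at day 1 and 0.75 (adjusted p = 0.00525) at day 3. The list's median log2 fold change was 0.48 at day 1 and 0.02 at day 3.

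Among 19 scaffold and polarity proteins, which tie claudins to actin and set the apical side of the cell, 5 were higher and 6 lower at day 1, and 2 were higher and 6 lower at day 3. The 8 calls of day 3 became 5 without day 0 replicate 2 or without day 3 replicate 5. Amotl2, an angiomotin-like protein, rose by 1.29 (adjusted p = 0.00140) at day 1. Prkcz, the atypical protein kinase C of the polarity complex, fell by 1.04 (adjusted p = 0.00488) at day 1 and by 0.91 (adjusted p = 0.0128) at day 3. At day 3 Mpdz, a scaffold with many PDZ domains, fell by 0.85 (adjusted p = 0.00349) and Amotl1 rose by 0.90 (adjusted p = 0.0315). The call of Amotl1 was lost in 3-digit libraries alone and without day 0 replicate 1, 2 or 3 or day 3 replicate 4 or 5 (adjusted p up to 0.0962).

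Of 4 genes of the kinases and the ubiquitin ligase that act on claudins in the distal nephron, 3 were lower at day 1 and 2 at day 3, and none was higher. Klhl3, the adaptor of a ubiquitin ligase that targets WNK kinases and Cldn8, fell by 2.30 (adjusted p = 0.000426) at day 1. Wnk4 fell by 1.24 (adjusted p = 0.000759) at day 1 and by 0.90 (adjusted p = 0.00672) at day 3, and Wnk1 by 1.04 (adjusted p = 0.000463) and 0.98 (adjusted p = 0.000991). Of 10 transcription factors of tubule epithelium, 2 were higher and 3 lower at day 1, and 2 were higher and 1 lower at day 3, which in 1-digit libraries alone were 5 calls in either direction. Hnf4a, a factor of the mature proximal tubule, fell by 1.02 (adjusted p = 0.00133) and Snai2, a repressor of epithelial genes, by 1.10 (adjusted p = 0.0214) at day 1. At day 3 Elf3 rose by 0.89 (adjusted p = 0.0186) and Tfcp2l1, a factor of the collecting duct, by 0.77 (adjusted p = 0.0158). Snai2 was not called without day 0 replicate 3 (adjusted p = 0.0520) or in 3-digit libraries alone (0.0954), nor was Elf3 without day 0 replicate 1, 2 or 3 (adjusted p up to 0.0615) or with the format as a term (0.0507).

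The genes whose pattern was most like each claudin were taken by the smallest root mean square difference in log2 CPM over 14 libraries, centred on day 0, among 13325 genes. For Cldn4 these were Hpcal4 (0.58), Gprc5a (0.61) and the metallothionein Mt1 (0.61). For Cldn7 they included the tubulin Tuba1a (0.28) and Klf11 (0.31), for Cldn3 Hn1 (0.29), Samd4 (0.29) and Ptger4 (0.32), and for Cldn1 Mcm3 (0.45), Nuak2 (0.46) and Wdhd1 (0.49). Mcm3 and Wdhd1 act in DNA replication. Cldn6 was matched by Gpc3 (0.52), Foxm1 (0.53) and Kif18a (0.67), of which the latter pair act in cell division. Among the claudins that fell, Cldn10 was matched by Dlec1 (0.23), the proximal scaffold Pdzk1 (0.24) and Hps5 (0.26), and Cldn2 by Xpnpep3 (0.18), Zfp383 (0.19) and Wdr7 (0.19). The matches of Cldn8 included Scd2 (0.27) and Sall1 (0.27). Cldn19 was matched by Klhl14 (0.36), Zfp60 (0.38) and Thap2 (0.39), and Cldn16 by Misp (0.29), Dgka (0.30) and Nat14 (0.30). No claudin was among the closest genes of another.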

How the data were processed

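Total RNA of mouse kidneys was sequenced after TRIzol extraction and Illumina TruSeq library preparation. According to the submitters' processing notes the reads were trimmed with Trimmomatic and aligned with STAR to mm10; versions and the gene annotation are not given in the sources used here. The authors deposited the uniquely mapped reads of each gene as unnormalized counts, 1 file per library, with an unstranded and 2 stranded columns. The reverse-strand column held 98.5% to 98.7% of strand-assigned reads and was used. Rows without a gene (4 per file) took 29.0% to 38.3% of reads and were left out. Replicates of a day differed beyond sampling noise, with a chi-square per degree of freedom of at least 5.69.

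Counts were tested in R 4.3.3 with edgeR 4.0.16 (filterByExpr by day, TMM, quasi-likelihood test, 1 term per day over all 14 libraries, Benjamini-Hochberg over 14300 genes). Format effects came from a fit with 5 terms, 1 per combination of day and format. DESeq2 1.42.0, another count column, other scalings and filters, a fold minimum of 1 on the log2 scale, the 2 days alone, the replicate number as a block, the format as a term, each format alone and leaving out each library were alternatives. The scripts were tested on simulated data. CPM used TMM, and log2 CPM a prior count of 2. All 10 claudins were named, and in the other lists the 3 called genes with the largest change and a mean of at least 1 CPM. Some genes that these rules and the likeness measure would name are not reported here. The claudins and the 17 lists were chosen with earlier results of these data known. Promoter sequences came from RefSeq and gene positions from GENCODE M21.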

Additional observations from a re-analysis of the deposited data

Results flagged for a closer look

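Cldn4 was at 33.4 CPM in day 0 replicate 4, far from the other 3 libraries of its day on the CPM scale, and Cldn10 was at 35.2 CPM in day 3 replicate 5, far from the other 4 of its day on the log2 CPM scale. On each scale 30 groups were examined and 1 was found, where chance gives about 1.5. The difference between 3-digit and 1-digit libraries changed from day 1 to day 3 for Cldn6, by 3.30 on the log2 scale, and for Cldn16, by 1.31, in the test of that difference. The cause of these 4 values was not tested.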

How the results depend on the processing

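For day 1 against day 0 the count of claudins called stayed within 1.5 times the 8 reported in every alternative run. It was 6 to 9 when a library was left out, beside 32.9% to 45.9% of all genes, whose shares follow in brackets. For day 3 against day 0 it was 5 (33.3%), with 4 to 5 when a library was left out (23.0% to 39.7%). It was 8 with the format as a term (48.2%), 8 in 1-digit libraries alone (56.3%) and 6 in 3-digit libraries alone (34.0%). For day 3 against day 1 it was 0 (15.9%), then 1 with DESeq2 (23.0%) and 2 with the format as a term (19.7%). It was 4 in 1-digit libraries alone (36.0%), 2 in 3-digit libraries alone (16.0%) and 0 to 3 when a library was left out (8.90% to 23.5%). For the format within day 1 leaving out a library gave 3 to 7, within day 3 it gave 0 to 6 beside 5 with DESeq2, and for the difference of the format effects 1 to 4.

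Directions turned for values that had not passed the test. Cldn16 at day 3 against day 0 was -0.0137 without a filter, -0.58 with the format as a term and -1.01 in 1-digit libraries, and -0.35 to 0.22 when a library was left out. Between day 3 and day 1, Cldn3 was 0.0493 on library totals and 0.0888 in 3-digit libraries, and in 1-digit libraries Cldn6 was -0.91, Cldn10 -0.35 and Cldn16 -0.66. When a library was left out, Cldn3 for the format within day 3 ranged from -0.60 to 0.36, and for the difference of the format effects Cldn1 from -0.28 to 0.65, Cldn3 from -0.14 to 0.83 and Cldn19 from -0.83 to 0.24. The cause was not tested. Library totals without TMM moved the median of all genes to 0.19 at day 3 against day 0, to 0.17 between day 3 and day 1, to 0.24 for the format within day 1 and to -0.19 for the difference of the format effects.

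The labels do not say that a replicate number marks a shared animal or batch, and the correlations of samples with the same number ran from -0.17 to 0.26, so the number was not taken as a pairing. Between days 1 and 3, replicates 1, 2, 4 and 5 also share the number format, and replicate 3, which does not, had the lowest correlation, so that block and format are partly the same. With the replicate number as a block 2 claudins were called between day 3 and day 1, and Cldn16 at day 3 against day 0 was -0.00448. The calls of Snai2 at day 1 and of Amotl1 and Elf3 at day 3 were lost in that fit (adjusted p = 0.0506, 0.0558 and 0.0586).

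With a minimum of 1 on the log2 scale the calls at day 3 were 1 of the junction's other transmembrane proteins, 0 of its scaffold and polarity proteins, 0 of the kinases and ubiquitin ligase and 1 of the transcription factors, and at day 1 they were 2 of those transmembrane proteins, 3 of the scaffold and polarity proteins, 3 of the transcription factors and 1 of the other claudins. Over all genes this minimum left 20.7% called at day 1 and 18.2% at day 3.

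Depth limits Cldn6 most, at 13 reads in the lowest library.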

Other observations

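Markers of the remaining cell types were counted in the same fit as the claudins, where 42.1% of all genes were called at day 1 and 33.3% at day 3. Of 5 distal convoluted tubule markers 2 were lower at day 1 and 4 at day 3, and of 10 intercalated cell markers 3 were lower at day 1 and 6 at day 3, with none higher in either list. Of 4 thin limb markers 1 was lower at each day, and their sum at day 1 was 209 and 337 CPM in the 3-digit libraries and 38.7 to 75.0 CPM in the 1-digit libraries, the same libraries in which Cldn8 and Cldn19 were low. At day 3 the formats overlapped, with sums of 269, 66.5 and 272 CPM in the 3-digit and 202 and 40.9 CPM in the 1-digit libraries. The 4 neutrophil markers tested were higher at both days, with a summed level of 0.588 to 1.44 CPM at day 0, 44.9 to 195 CPM at day 1 and 13.8 to 399 CPM at day 3. Of 7 macrophage markers 1 was higher and 1 lower at day 1, and 2 were higher and 1 lower at day 3. Of 7 endothelium markers 1 was higher and 1 lower at day 1, and of 5 podocyte markers 1 was higher at day 3. The part of these cell types in the claudin levels was not tested.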
